A study of Mus musculus with 28 samples.

Results

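Solute carriers are membrane proteins that move small molecules across the plasma membrane and the membranes of organelles, and their genes carry symbols that start with Slc. The genes described here were chosen by their measured level: they are those with a mean expected count of at least 20 over the 12 libraries of a treatment experiment in CD8+ tumour-infiltrating lymphocytes (TILs). Of 20603 genes in that table, 361 had a symbol starting with Slc. Among these, 6 were set aside by name (Slc2a1, Slc2a3, Slc16a1, Slc16a3, Slc35b1 and Slc35b2), 172 fell under the mean count, and 183 were kept. The members nearest the limit from above had mean counts of 20 (Slc16a5), 20.3 (Slc1a2) and 24.4 (Slc7a7), and the genes nearest from below had 19.8 (Slc36a4), 18.9 (Slc28a3) and 18.4 (Slc46a1). Sorted by the substrates that their families are known for, 35 members were mitochondrial carriers, 29 amino acid and peptide carriers, 28 ion carriers, 21 metal carriers and 19 members of the nucleotide-sugar family. A further 17 belonged to families for lipids, choline and organic ions, 16 to those for organic osmolytes, vitamins and nucleosides, and 13 to those for sugars and carboxylates. There were 4 genes merely named after a carrier, such as Slc9a3r1, and Slc14a1, a urea carrier, stood alone.

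Wild-type C57BL/6 mice carried tumours of MC38-OVA, which are mouse colon carcinoma cells made to express ovalbumin. For the treatment experiment, CD8+ TILs that were Tim-3+PD-1+ (DP) or Tim-3-PD-1- (DN) were sorted on day 12 from mice given antibodies to both Tim-3 and PD-1 (blockade) or isotype control antibodies, with 3 libraries in each of the 4 groups. The subset experiment divided PD-1-CD8+ TILs by surface proteins. Effector-like cells were CD62L-Slamf7hiCX3CR1+ (n = 3), memory-like cells were CD62L-Slamf7hiCX3CR1- (n = 5), and CD62LhiSlamf7-CX3CR1- cells are called naive-like (n = 6). Single DN cells after isotype or blockade were also sequenced. The labels do not say which libraries came from separate mice, and 2 effector-like libraries (replicates 1 and 2) have names with 3 numbers, which may mean pools, so p-values measure the spread between these samples only. The name of effector-like replicate 3 carries the number 5, which is also in that of replicate 2, so these libraries may not be independent. A date in the library names separates naive-like from the other subset libraries, and there the date cannot be told apart from the group. DP and DN libraries of 1 treatment share numbers in their library names, which the main tests did not use as pairs.

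T cells change their carriers as they leave quiescence. Naive T cells import little, and activation through the antigen receptor raises amino acid, glucose and iron uptake, with Slc3a2 and Slc7a5 (which together form the CD98 leucine importer), Slc1a5 (a glutamine carrier) and Slc38a1 and Slc38a2 (small neutral amino acids) among the best studied genes. Mitochondrial carriers of the Slc25 family exchange ADP, ATP, phosphate and metabolites between cytosol and matrix. Nucleotide-sugar carriers of the Slc35 family supply the Golgi with building blocks of glycans. Other carriers sit in lysosomes and are best known from macrophages and dendritic cells, among them Slc11a1, Slc15a4, Slc29a3 and Slc2a6.

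Libraries held 5027112 to 7978200 counts in the subset and 8005818 to 13579262 in the treatment experiment. The share of counts was 0.72 to 0.877% for the 183 members together and 10.7 to 20.7% for the ribosomal RNA gene Rn45s. Levels are in CPM, counts scaled to a common library size and not divided by gene length, so levels are compared between groups and not between genes. The T cell markers Cd3e and Cd8a were present in every group, at 216 to 482 and 393 to 803 CPM over all libraries. T cell genes also moved with the sorted groups. The summed CPM of 13 core T cell genes was 6340 to 6860 in DP blockade, 5400 to 6530 in DP isotype, 4320 to 5260 in DN blockade and 4420 to 5540 in DN isotype libraries. Of the 13, 6 were higher and 0 lower in DP than in DN cells after blockade, and 5 higher and 1 lower with isotype antibodies, at an adjusted p under 0.05 in edgeR. Markers of other cells moved as well. The summed CPM of 20 genes of plasmacytoid dendritic cells was 907 to 1030 in DP blockade, 783 to 812 in DP isotype, 2290 to 3420 in DN blockade and 3400 to 5060 in DN isotype libraries. Their defining marker Siglech was at 0 to 0.993 CPM in DP blockade, 0.335 to 7.45 in DP isotype, 214 to 361 in DN blockade and 459 to 725 in DN isotype libraries. The myeloid gene Lyz2 ran the other way, at 121 to 252 CPM in DP blockade, 108 to 136 in DP isotype, 14.1 to 88.7 in DN blockade and 1.63 to 3.68 in DN isotype libraries. The summed CPM of 27 myeloid genes, in contrast, overlapped between DP blockade (964 to 1540) and DN blockade (815 to 1600), and was 741 to 1020 in DP isotype and 1260 to 1780 in DN isotype libraries. The part of T cell content and of such other cells in the differences below was not tested in the bulk libraries. In bulk libraries, fewer cells of a type and less RNA per cell cannot be told apart.

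The promoters of 135 of the 183 members were found in a RefSeq table (GRCm38.p6), as the 250 bases before a transcription start. A few are shown because their genes carry the results below: Slc12a7 was lower both in DP than in DN cells and in effector-like than in naive-like cells, Slc2a6 had the smallest p among the members lower in DP cells after both treatments, Slc17a6 had one of the largest rises, and Slc37a2 moved in opposite directions in the DP and effector-like comparisons. Each is written 5′ to 3′ on the strand of its gene, taking the start site farthest upstream where the table lists several. Capitals mark matches, on either strand, to TGANTCA (the AP-1 motif), CACGTG (an E-box), ACCACA (the RUNX motif), GGGCGG (a GC box) and CCAAT. The positions are chr13:73763410-73763659 (plus strand) for Slc12a7, chr2:27027999-27028248 (minus strand) for Slc2a6, chr7:51621580-51621829 (plus strand) for Slc17a6 and chr9:37255739-37255988 (minus strand) for Slc37a2.
Slc12a7: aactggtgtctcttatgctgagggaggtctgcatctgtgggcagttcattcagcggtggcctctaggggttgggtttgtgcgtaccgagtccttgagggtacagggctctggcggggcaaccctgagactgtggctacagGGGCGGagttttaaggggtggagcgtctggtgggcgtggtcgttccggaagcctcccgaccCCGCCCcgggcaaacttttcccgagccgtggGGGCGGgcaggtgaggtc
Slc2a6: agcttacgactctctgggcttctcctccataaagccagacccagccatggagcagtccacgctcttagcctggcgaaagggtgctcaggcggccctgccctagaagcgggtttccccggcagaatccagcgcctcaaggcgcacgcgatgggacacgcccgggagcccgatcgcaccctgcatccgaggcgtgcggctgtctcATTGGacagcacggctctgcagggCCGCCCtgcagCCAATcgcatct
Slc17a6: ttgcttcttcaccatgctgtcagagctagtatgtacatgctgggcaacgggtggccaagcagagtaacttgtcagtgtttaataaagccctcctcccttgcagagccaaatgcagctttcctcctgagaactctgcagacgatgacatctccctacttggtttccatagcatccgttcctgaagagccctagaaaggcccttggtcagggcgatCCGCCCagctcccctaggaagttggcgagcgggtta
Slc37a2: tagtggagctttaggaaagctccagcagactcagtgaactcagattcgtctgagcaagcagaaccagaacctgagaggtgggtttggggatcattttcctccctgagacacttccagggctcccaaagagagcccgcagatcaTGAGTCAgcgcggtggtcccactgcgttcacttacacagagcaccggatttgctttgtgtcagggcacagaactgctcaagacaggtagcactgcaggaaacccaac
The window of Slc12a7 held 3 GC boxes, that of Slc2a6 held 1 GC box and 2 CCAAT boxes, and that of Slc17a6 held 1 GC box. The window of Slc37a2 held 1 AP-1 match and no match to the other motifs. Among the 32851 promoter windows of the table, 6.75% held an AP-1 match, 6.02% an E-box, 14% a RUNX match, 32.7% a GC box and 33.8% a CCAAT box. Among the 180 windows of members the shares were 4.44, 13.3, 10, 63.3 and 31.1%, in the same order. Members were kept by a minimum mean count and the windows of the whole table were not. The 2 sets of shares are therefore not matched for expression, and no difference between them is read as particular to carriers.

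The comparison of DP with DN cells asked how carrier mRNA differs between PD-1+ and PD-1- TILs of one tumour type. DP cells held more mRNA of the zinc importer Slc39a4, the nucleoside carrier Slc29a1, the hexose carrier Slc2a8 and the sugar-phosphate exchanger Slc37a2, and less of the iron importer Slc11a2, the potassium-chloride cotransporter Slc12a7, the sulphate carrier Slc26a11 and the vesicular nucleotide carrier Slc17a9. The largest fitted rise among members called after both treatments was that of Slc17a6, a vesicular glutamate carrier known from neurons. After blockade, 24 members were higher and 29 lower in DP cells, of 183 tested. With isotype antibodies, 24 were higher and 34 lower. A call is an adjusted p under 0.05 in edgeR's quasi-likelihood fit, with Benjamini-Hochberg values over all 12710 genes. Of all genes, 27% were called after blockade and 29.9% with isotype antibodies. By direction, 14.4% of genes were higher and 12.5% lower after blockade, and 15 and 14.8% with isotype antibodies. Counts by substrate class below stand beside these shares, and none is read as particular to its class. The members' shares called in either direction, 29 and 31.7%, were near the background. The median log2 fold change of the members was -0.03 after blockade and -0.07 with isotype antibodies, against -0.04 and 0 over all genes. Most called changes were moderate, with a median size of 0.89 log2 units in each comparison, and 22 of 53 and 23 of 58 called members differed more than 2-fold. A further caution applies to 16 members that had a mean count under 20 in at least 1 of the 4 groups, among them Slc17a6, Slc11a1, Slc16a11, Slc7a8, Slc16a5, Slc6a19 and Slc43a1. They entered the set through the groups where they were high, so their choice favours a difference between groups. Among the other 167, 20 members were higher and 25 lower after blockade, and 19 and 29 with isotype antibodies.

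**Figure D1:**
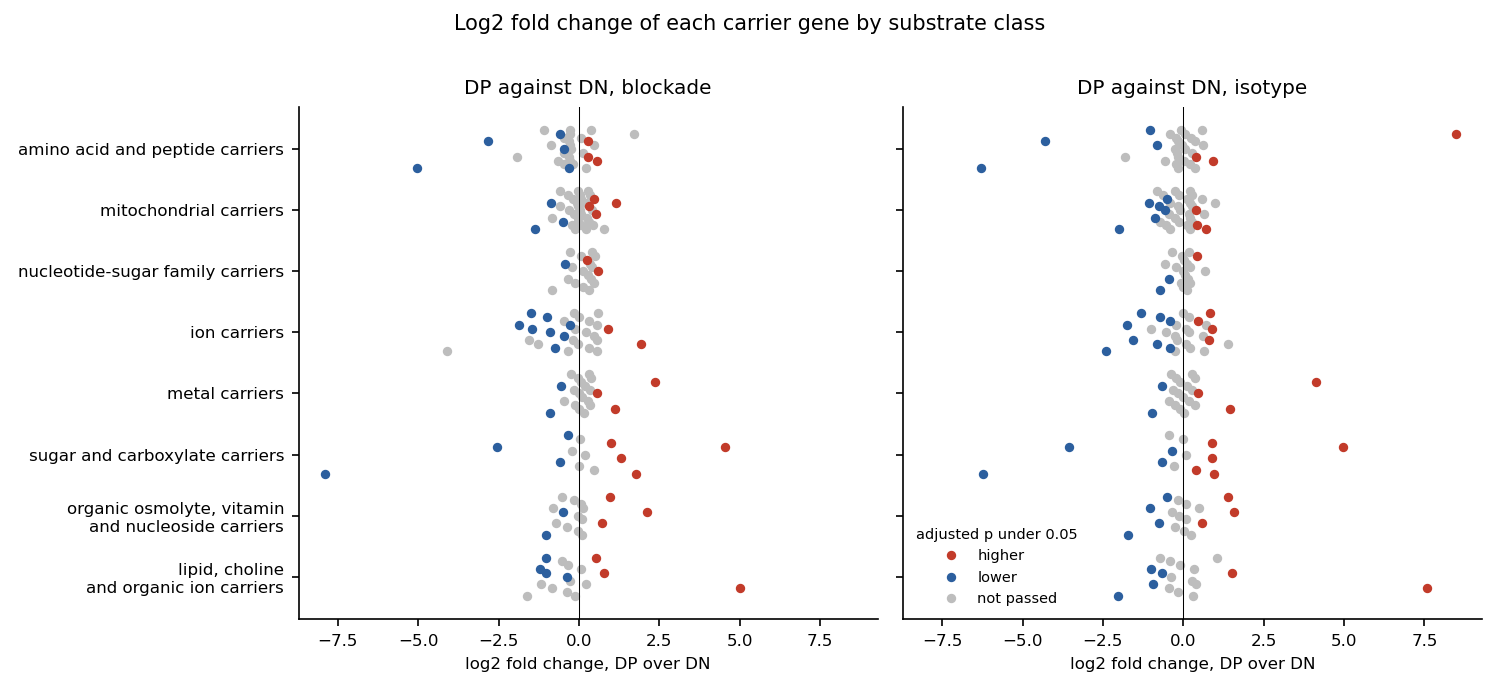
Log2 fold change of each carrier gene in DP over DN cells (horizontal axis), after blockade (left) and with isotype antibodies (right), by substrate class (vertical axis; the 5 members of no substrate class are left out). Red and blue points passed an adjusted p under 0.05 (higher or lower in DP cells) and grey points did not. Each class holds called members on both sides of 0.

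Amino acid and peptide carriers were called in both directions, with 3 higher and 5 lower of 29 after blockade and 3 higher and 4 lower with isotype antibodies. Slc1a5 was at 328, 286 and 276 CPM in DP blockade against 231, 237 and 272 CPM in DN blockade libraries, and at 270, 291 and 272 CPM in DP isotype against 209, 214 and 216 CPM in DN isotype libraries. Every DP library stood above every DN library of the same treatment, by log2 0.27 ± 0.091 (SE) after blockade (adjusted p = 0.0456) and 0.38 ± 0.092 with isotype antibodies (adjusted p = 0.00704). The call after blockade was lost without DN blockade replicate 1 or 2, DP blockade replicate 1 or 2, or DP isotype replicate 2 or 3 (adjusted p = 0.0525 to 0.144 by edgeR). It was also lost with no filter on low counts (0.0589), without Rn45s (0.0507) and with only the groups compared in the fit (0.0811). Replicate blocks ended it as well, and such losses are given at the end. Slc15a4, a lysosomal carrier of histidine and peptides that dendritic cells need for signalling by nucleic acid sensors, was at 25.3, 27.1 and 32.1 CPM in DP blockade against 34.9, 40.9 and 41.4 CPM in DN blockade libraries. With isotype antibodies it was at 32.4, 27.3 and 30.9 CPM in DP against 54.4, 56.1 and 49.5 CPM in DN libraries. Slc15a4 was thus lower in DP cells by a log2 fold change of -0.47 ± 0.13 after blockade (adjusted p = 0.0158) and -0.82 ± 0.13 with isotype antibodies (adjusted p = 0.000403). Its call after blockade was lost without DN blockade replicate 2 or 3 or DP blockade replicate 1 or 2 (adjusted p = 0.0516 to 0.0852).

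Carriers of large neutral amino acids split. Slc43a1 was at 0.47, 0.535 and 1.02 CPM in DP blockade against 3.44, 6.33 and 4.85 CPM in DN blockade libraries, and at 0.2, 1.11 and 0.167 against 12.3, 8.25 and 8.64 CPM with isotype antibodies. Its DP libraries all lay below its DN libraries. Slc43a2, its close relative, was lower in DP cells with isotype antibodies (log2 -1.03 ± 0.22, adjusted p = 0.0036) and did not pass after blockade. Slc7a8 (LAT2) was at 5.19, 2.01 and 5.52 CPM in DP isotype libraries and at 0 counts in all 3 DN isotype libraries, which allows up to 0.107 CPM, so that it was at least 39.6-fold higher. After blockade it was at 8.54, 7.64 and 3.71 CPM in DP against 2.93, 3.16 and 0 CPM in DN libraries and did not pass. Slc6a19, a neutral amino acid carrier known from gut and kidney, was at 0.313, 0 and 0 CPM in DP blockade against 6.78, 3.42 and 1.68 CPM in DN blockade libraries, and lower with isotype antibodies as well. The CD98 pair did not pass in either comparison: Slc3a2 averaged 393 CPM in DP blockade, 389 in DP isotype, 473 in DN blockade and 439 in DN isotype libraries, and Slc7a5 lay between 10.8 and 16.3 CPM in all 12 libraries.

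Metal carriers called after both treatments included both members of the Slc11 family, in opposite directions. Slc11a2 (DMT1), which imports ferrous iron into the cytosol, was at 46.4, 36.3 and 38.9 CPM in DP blockade against 54.2, 60 and 63.4 CPM in DN blockade libraries. With isotype antibodies it was at 34, 37.3 and 36.8 CPM in DP against 70.1, 76.1 and 66.4 CPM in DN libraries. It was lower in DP cells by -0.55 ± 0.12 (adjusted p = 0.00424) and -0.97 ± 0.12 (adjusted p = 6.36e-05), with no overlap between groups. Slc11a1 (NRAMP1), which pumps metals out of the phagosomes of macrophages, was at 16.8, 17.5 and 9 CPM in DP blockade against 4.15, 1.77 and 2.38 CPM in DN blockade libraries, and at 9.48, 14.6 and 10.3 against 0.345, 1.09 and 0.496 CPM with isotype antibodies. Its log2 fold changes were 2.37 ± 0.4 and 4.13 ± 0.47, and its mean CPM followed the order of Lyz2 across the 4 groups. Slc39a4 (ZIP4), a zinc importer known from the intestine, was at 46.4, 39.9 and 33.5 CPM in DP blockade against 14.5, 20.2 and 21 CPM in DN blockade libraries. It was at 34.6, 30.6 and 30.5 against 6.78, 12.7 and 15.2 CPM with isotype antibodies, so all DP libraries exceeded all DN libraries (log2 1.11 ± 0.24, adjusted p = 0.00544, and 1.46 ± 0.25, adjusted p = 0.000847).

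Ion carriers had calls on both sides, with 2 higher and 8 lower of 28 after blockade and 4 higher and 8 lower with isotype antibodies. Of all genes, 14.4% were higher and 12.5% lower after blockade, and 15 and 14.8% with isotype antibodies. The lower members include Slc8a1, which had a mean count under 20 in DP isotype cells. Slc12a7 (KCC4), which lets potassium and chloride leave the cell together, was at 43.5, 43.7 and 37.3 CPM in DP blockade against 99, 86 and 65.2 CPM in DN blockade libraries. It was at 41.5, 48.2 and 52.4 CPM in DP isotype against 128, 174 and 120 CPM in DN isotype libraries. The groups did not overlap, and the log2 fold change was -1.01 ± 0.17 after blockade (adjusted p = 0.00114) and -1.57 ± 0.17 with isotype antibodies (adjusted p = 3.77e-05). Slc26a11, an anion carrier for sulphate and chloride, was at 12.4, 13 and 11.8 CPM in DP blockade against 26.9, 35.6 and 40.7 CPM in DN blockade libraries, and at 15.2, 16 and 17.2 against 34.6, 47 and 38.1 CPM with isotype antibodies. Its DP libraries all lay below its DN libraries, and its log2 fold changes were -1.47 ± 0.17 and -1.31 ± 0.17. Slc41a2, a magnesium carrier, was lower in DP cells by -1.88 ± 0.25 and -1.76 ± 0.25, at 6.06 ± 1.24 CPM in DP blockade against 22.4 ± 6.93 CPM in DN blockade libraries (SD, n = 3 each). Slc12a2 and Slc4a7, from the panel of known carriers, gave no call after blockade, and Slc12a2 was higher in DP isotype cells, at 7.26 ± 1.21 against 3.91 ± 0.313 CPM.

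**Figure D2:**
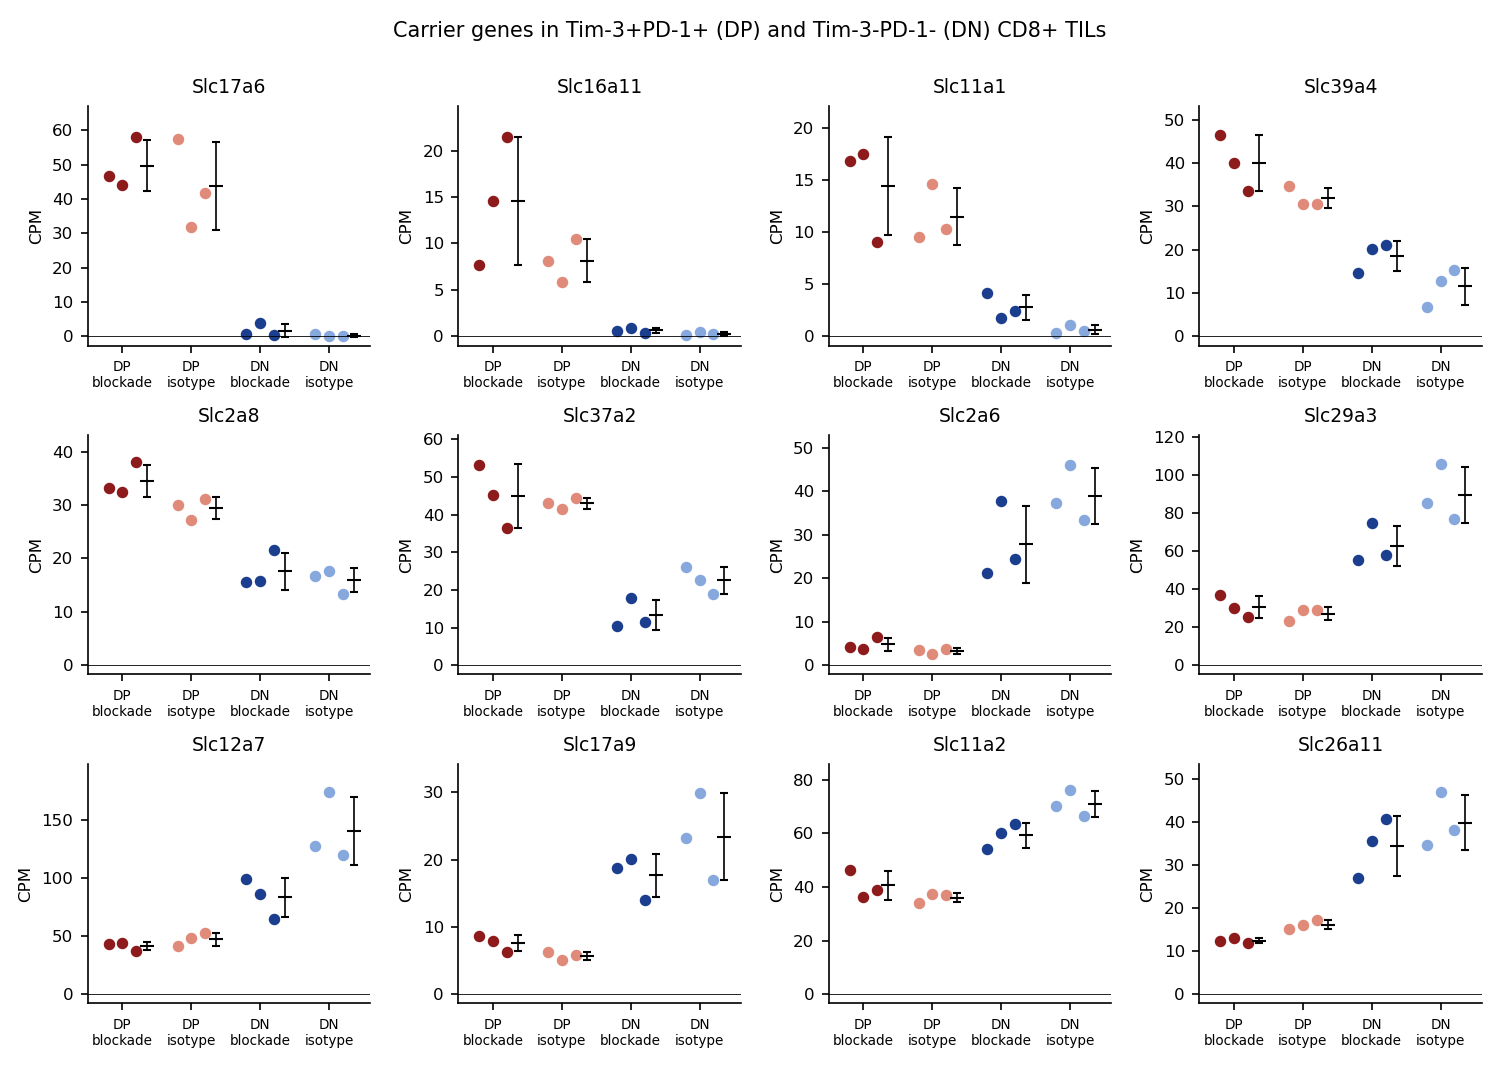
CPM (vertical axes) of 12 carrier genes in each treatment library, in DP blockade, DP isotype, DN blockade and DN isotype cells (left to right, 3 points each); dashes and bars give mean and SD. The first 6 genes are higher in both DP groups than in the DN group of the same treatment, and the last 6 are lower.

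Sugar and carboxylate carriers were called in both directions, with 4 higher and 4 lower of 13 after blockade and 5 higher and 4 lower with isotype antibodies. These counts include Slc16a11 and Slc16a5, whose choice favours a difference because their mean count was under 20 in some groups. Slc2a6 (GLUT6), a lysosomal glucose carrier known from macrophages, was at 4.15, 3.74 and 6.4 CPM in DP blockade against 21.2, 37.8 and 24.4 CPM in DN blockade libraries. It was at 3.59, 2.52 and 3.68 CPM in DP isotype against 37.3, 46 and 33.4 CPM in DN isotype libraries, and its log2 fold changes were -2.55 ± 0.27 (adjusted p = 4.18e-05) and -3.57 ± 0.29 (adjusted p = 3.35e-06). Within the DN blockade and within the DN isotype libraries, Slc2a6 and Siglech put the 3 libraries in the same order. Slc29a3, described below, gave that order as well, and the part of plasmacytoid cells in these values was not tested. Slc2a8 (GLUT8), an intracellular hexose carrier, was higher in DP cells, at 33.2, 32.5 and 38 CPM in DP blockade against 15.5, 15.7 and 21.5 CPM in DN blockade libraries (log2 0.98 ± 0.16, adjusted p = 0.000897). With isotype antibodies it was at 30, 27.2 and 31.1 against 16.7, 17.7 and 13.4 CPM. Slc37a2, which exchanges glucose 6-phosphate for phosphate across the endoplasmic reticulum membrane, was at 53.3, 45.3 and 36.4 CPM in DP blockade against 10.3, 17.8 and 11.6 CPM in DN blockade libraries, and at 43.2, 41.5 and 44.4 against 26.1, 22.5 and 18.9 CPM with isotype antibodies. The DP groups overlapped and the DN isotype libraries lay above the DN blockade libraries. The log2 fold change was 1.77 ± 0.21 after blockade (adjusted p = 8.77e-05) and 0.94 ± 0.2 with isotype antibodies (adjusted p = 0.00388). Among monocarboxylate carriers, Slc16a11 was at 7.68, 14.6 and 21.5 CPM in DP blockade against 0.607, 0.886 and 0.396 CPM in DN blockade libraries, and Slc16a5 was at 0 counts in all DP blockade libraries against 2.43, 3.42 and 2.77 CPM in DN blockade libraries. A count of 0 over the group allows up to 0.0819 CPM, which makes Slc16a5 at least 35-fold lower.

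Nucleoside carriers of the plasma membrane and the lysosome went opposite ways. Slc29a1 (ENT1), the plasma membrane carrier, was at 101, 116 and 91.2 CPM in DP blockade against 61.5, 63.8 and 63 CPM in DN blockade libraries, and at 97, 110 and 91.1 against 67.2, 58.5 and 73.2 CPM with isotype antibodies. It was higher in DP cells by log2 0.71 ± 0.12 and 0.58 ± 0.12 (adjusted p = 0.000794 and 0.00241). Slc29a3 (ENT3), its lysosomal relative, was at 37, 29.9 and 25.4 CPM in DP blockade against 55.1, 74.6 and 57.8 CPM in DN blockade libraries, and at 23.1, 29 and 29.1 against 85.3, 106 and 77.1 CPM with isotype antibodies. Its log2 fold changes were -1.02 ± 0.18 and -1.72 ± 0.18, with no overlap. Slc43a3, which carries purine nucleobases, was higher in DP cells by 2.11 ± 0.34 and 1.4 ± 0.33 (31 ± 5.58 against 7.29 ± 4.43 CPM after blockade, SD, n = 3 each).

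Carriers of vesicles and lipids followed. Slc17a6 was at 46.8, 44.2 and 58.1 CPM in DP blockade against 0.809, 3.8 and 0.297 CPM in DN blockade libraries, and at 57.4, 31.9 and 41.8 against 0.574, 0.109 and 0 CPM with isotype antibodies. No DN library came near a DP library (log2 5.01 ± 0.58, adjusted p = 6.96e-05, and 7.59 ± 0.75, adjusted p = 1.42e-05). Slc17a9 (VNUT), which loads ATP into secretory vesicles, was at 8.62, 7.94 and 6.31 CPM in DP blockade against 18.8, 20.1 and 14 CPM in DN blockade libraries, and at 6.19, 5.03 and 5.86 against 23.2, 29.9 and 17 CPM with isotype antibodies (log2 -1.2 ± 0.23 and -2.03 ± 0.24). Slc27a1 (FATP1), which takes part in fatty acid uptake, was lower by -1.02 ± 0.16 and -0.67 ± 0.16, at 30.5 ± 1.39 CPM in DP blockade against 61.9 ± 8.87 CPM in DN blockade libraries. Slc44a2, a choline carrier-like protein, was lower by -0.95 ± 0.13 with isotype antibodies and by -0.38 ± 0.13 after blockade (adjusted p = 0.046). That second call was lost without any 1 of 9 libraries, which were DN blockade replicates 2 and 3, DN isotype replicate 1, and every DP blockade and DP isotype library (adjusted p = 0.0502 to 0.184), and with no filter on low counts (0.071).

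Mitochondrial and nucleotide-sugar carriers were called in both directions. Of 35 mitochondrial carriers, 4 were higher and 3 lower after blockade and 3 higher and 6 lower with isotype antibodies. Slc25a11, the carrier of oxoglutarate and malate, was at 136, 146 and 131 CPM in DP blockade against 111, 111 and 112 CPM in DN blockade libraries, and at 138, 119 and 126 against 100, 99 and 93.7 CPM with isotype antibodies. The differences were small and free of overlap (log2 0.3 ± 0.083 and 0.39 ± 0.084), and the first call was lost without DP blockade replicate 2 (adjusted p = 0.0722). Slc25a5 (ANT2), an ADP and ATP exchanger with near-identical copies in the genome, which makes its counts uncertain, was higher in DP cells after blockade, at 824 ± 54.7 against 597 ± 23 CPM. It did not pass with isotype antibodies, at 756 and 648 CPM. Slc25a53 was lower in DP cells after both treatments, with a call that was lost after blockade without DP blockade replicate 1 or 2 (adjusted p = 0.051 and 0.0582). Of 19 nucleotide-sugar family carriers, 2 were higher and 1 lower after blockade and 1 higher and 2 lower with isotype antibodies. Slc35a1, which brings CMP-sialic acid into the Golgi, was at 25.7, 25.1 and 27.6 CPM in DP blockade against 16.1, 18.1 and 17.4 CPM in DN blockade libraries (log2 0.6 ± 0.13, adjusted p = 0.00573). Its smaller rise with isotype antibodies (0.41 ± 0.13, adjusted p = 0.0356) was lost without DN isotype replicate 1 or 2 or DP isotype replicate 2 or 3 (adjusted p = 0.071 to 0.153), with no filter on low counts (0.0845) and with only the groups compared (0.091).

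The DP and DN comparisons of the 2 treatments share no library. They called 38 members in common, all in the same direction, which was 71.7% of those called after blockade and 65.5% of those called with isotype antibodies. Over all genes the shares were 71.5 and 64.5%, close to the shares of the carriers. Across the 183 members the log2 fold changes correlated with Pearson's r = 0.81 and Spearman's rho = 0.71 (0.78 and 0.69 over all genes), as a description across genes that share library and depth.

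**Figure D3:**
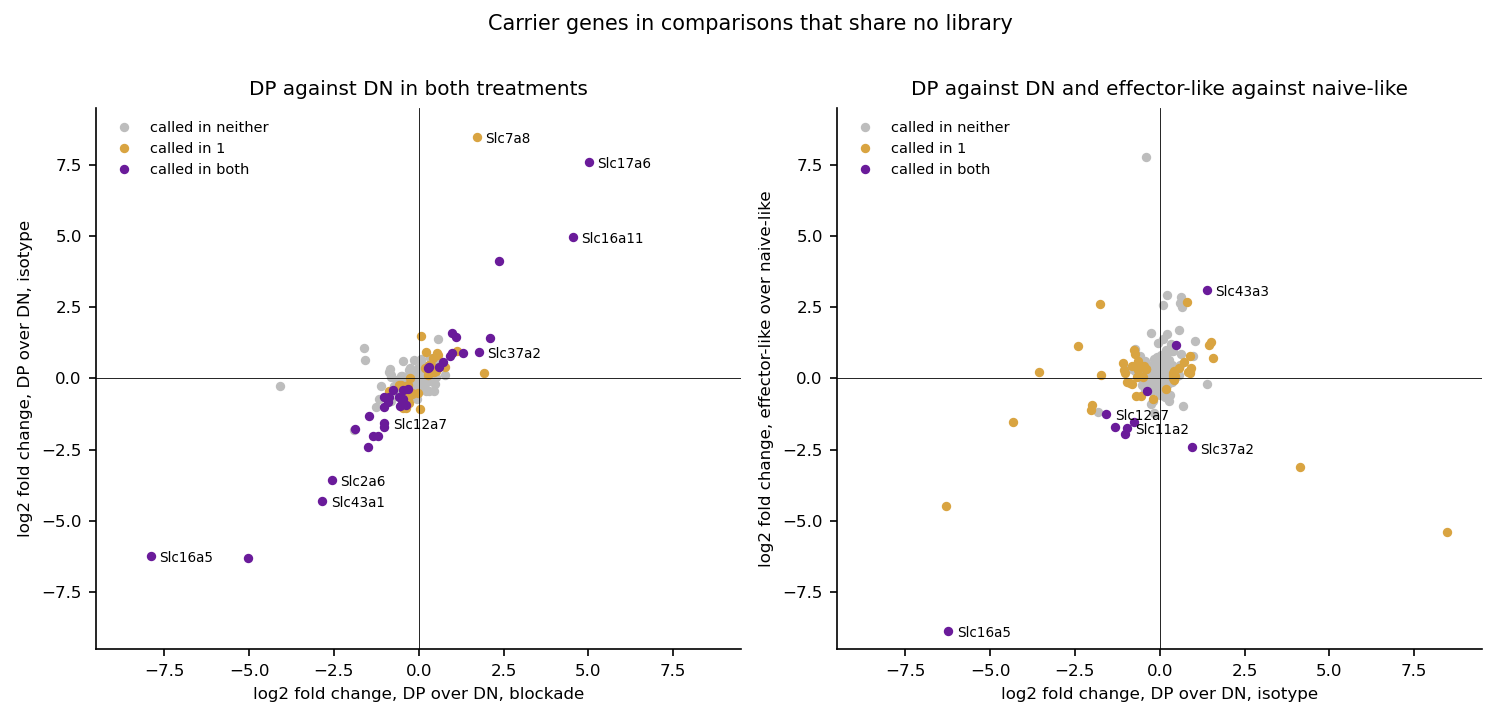
Left, log2 fold change in DP over DN cells after blockade (horizontal) and with isotype antibodies (vertical); right, DP over DN with isotype antibodies (horizontal) and effector-like over naive-like (vertical), 1 point a member. Purple marks members called in both comparisons of a panel; at the right, Slc37a2 is the 1 such member in an opposite-sign quadrant.

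UMIs of these genes in single DN cells were counted by the marker genes of the cells. The cells were taken as 1 pool of 5452 cells, because the cell names do not say which cells had isotype or blockade. The 4499 cells with at least 3 UMIs (single mRNA molecules counted) of Cd3d, Cd3e, Cd3g, Cd8a and Cd8b1 and none of the other markers are called T cell marker cells here. There were 21 cells with at least 3 UMIs of the plasmacytoid markers Siglech, Klk1, Cox6a2, Pacsin1 and Ly6d, and 49 with at least 3 of the myeloid markers Lyz2, C1qa, C1qb, Csf1r and Fcgr1. T cell UMIs also reached 3 in 17 of the 21 and 17 of the 49, and the plasmacytoid and myeloid sets share cells, so a UMI can count in both. No doublet caller was run. Intervals below are exact Poisson 95% intervals for counting error, with no replicate. Droplets also hold free RNA. C1qc, a macrophage gene that did not define the sets, had 0.759 CPM (0.415 to 1.27) in T cell marker cells against 951 (881 to 1020) in myeloid marker cells, at median depths of 3673 and 7834 UMIs. Cd3d had 284 and 111 CPM in plasmacytoid and myeloid marker cells against 1300 in T cell marker cells. These 2 genes were chosen after their values were seen. T cell marker cells were defined to lack C1qa and C1qb, and C1qc is a single gene, so its level sets no floor for other genes. Low levels in T cell marker cells are read neither as expression there nor as its absence. Slc2a6 had 32.9 CPM (14.2 to 64.8) in plasmacytoid marker cells and 9.69 (3.89 to 20) in myeloid marker cells, against 0.217 (0.0591 to 0.555) in T cell marker cells. Of its 20 UMIs in all, 4 lay in T cell marker cells. Slc29a3 had 24.7 and 19.4 CPM against 2.87 (2.15 to 3.76), and Slc15a4 had 45.2 (22.6 to 80.9) and 24.9 (14.8 to 39.4) against 10.4 (8.94 to 11.9) in T cell marker cells. For Slc11a1, 136 of 141 UMIs lay in the 49 myeloid marker cells, at 188 CPM (158 to 223) against 0.108 (0.0131 to 0.392) in T cell marker cells. Slc7a8 had 31 UMIs in myeloid marker cells and 0 in T cell marker cells, which allows up to 0.163 CPM.

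Several members that were lower in DP cells were counted at 8.18 CPM or more in T cell marker cells. Slc17a9 had 4.11 CPM in plasmacytoid and 0 in myeloid marker cells against 21.6 (19.5 to 23.8) in T cell marker cells, and Slc11a2 had 8.22 and 13.8 against 24.9 (22.7 to 27.3). Slc26a11 had 4.11 and 4.15 CPM against 8.18 (6.93 to 9.6), Slc12a7 had 12.3 and 9.69 against 9.32 (7.98 to 10.8), and Slc44a2 had 41.1 and 29.1 against 54.9 (51.5 to 58.3). The few UMIs in the small sets leave wide intervals there, such as 2.54 to 36 CPM for Slc12a7 in plasmacytoid marker cells. Slc1a5 was at 80.7 CPM (76.7 to 84.9) in T cell marker cells and Slc3a2 at 325 (317 to 333). Slc17a6, which was higher in DP cells, had 21 UMIs in all DN cells together, and Slc16a11 had 0, which allows up to 0.121 CPM. No single DP cells were analysed here, so the cells that carried these mRNAs in DP libraries are not known.

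**Figure D4:**
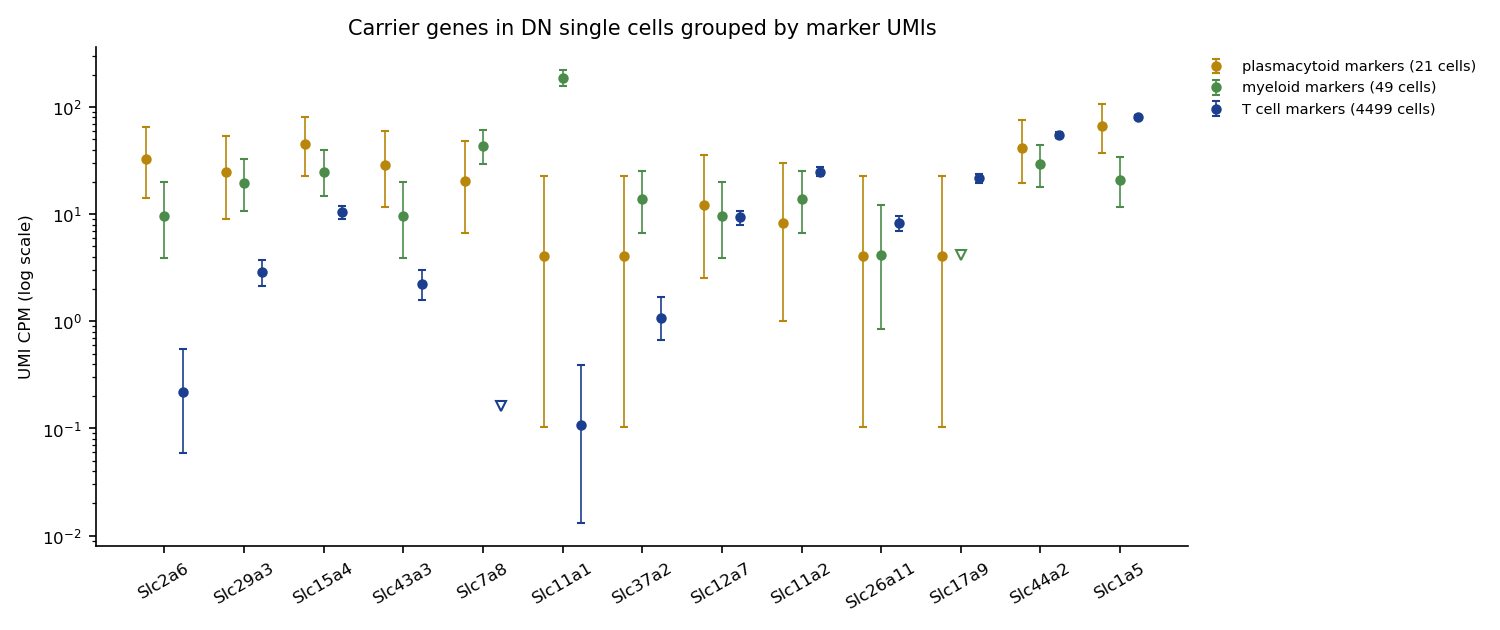
CPM of UMIs (vertical axis, log scale) of 13 carrier genes in DN single cells with plasmacytoid, myeloid or T cell marker UMIs (left to right for each gene); bars give exact Poisson 95% intervals, and open triangles the limit of a count of 0. By point value, Slc2a6, Slc29a3, Slc15a4, Slc43a3, Slc7a8 and Slc11a1 are highest outside T cell marker cells. Slc11a2, Slc17a9, Slc26a11, Slc44a2 and Slc1a5 are highest in them by point value, and few UMIs leave wide intervals in the small sets.

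Blockade was compared with isotype antibodies within each sorted population. In DN cells, 0 of 183 members passed, against 1.12% of all genes (0.519% higher and 0.598% lower), although 33 members had an unadjusted p under 0.05. Alternative tests called more, with 10 members in DESeq2 and 4 in edgeR without a filter on low counts. The smallest p values belonged to Slc12a7, at 99, 86 and 65.2 CPM in DN blockade against 128, 174 and 120 CPM in DN isotype libraries (log2 -0.75 ± 0.17, adjusted p = 0.0582), Slc11a1 (2.09 ± 0.49, adjusted p = 0.0638) and Slc44a2 (-0.55 ± 0.13, adjusted p = 0.0662). The groups did not overlap for these genes, and each passed in DESeq2 (adjusted p = 0.00289, 0.00419 and 0.00445). Without DN isotype replicate 3, 4 members passed, among them Slc12a7 (adjusted p = 0.0402) and Slc44a2 (adjusted p = 0.0331), and 1 passed without each DN blockade replicate. With the replicate number as a block, 0 members and 59 genes passed in place of 142, and the adjusted p was 0.0796 for Slc12a7, 0.225 for Slc11a1 and 0.0816 for Slc44a2. Beside these, Siglech was at 214 to 361 CPM in DN blockade against 459 to 725 in DN isotype libraries, and Lyz2 at 14.1 to 88.7 against 1.63 to 3.68 CPM; their part in these differences was not tested.

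In DP cells, 0 members passed, against 0.0629% of all genes (0.00787% higher and 0.0551% lower), and 9 members had an unadjusted p under 0.05. DESeq2 called 1 member, Slc9a9, an endosomal sodium-proton exchanger, which was at 43.4, 40.9 and 41.1 CPM in DP blockade against 61.6, 59.8 and 70.7 CPM in DP isotype libraries (log2 -0.62 ± 0.14, adjusted p = 0.284 by edgeR and 0.0233 by DESeq2). Slc4a1, the chloride-bicarbonate exchanger of red blood cells, was at 0.0783, 0 and 0 CPM against 4.89, 4.63 and 5.36 CPM (adjusted p = 0.14). It passed without a filter on low counts (adjusted p = 0.0171), with only the DP libraries in the fit (0.00104) and without DN blockade replicate 1 (0.00793). Red blood cell genes moved with it, with a summed CPM of 19.9 to 33 in DP blockade against 1440 to 3340 in DP isotype libraries. In DN cells the sums were 28.5 to 145 in blockade against 2770 to 5400 CPM in isotype libraries, and Slc4a1 was at 1.82, 0 and 0.099 against 2.18, 10.1 and 5.56 CPM. The part of red cell RNA in the values of Slc4a1 was not tested. The difference between the blockade effects of DP and DN cells was tested as an interaction, and 0 members and 0 genes passed by edgeR, with 19 members and 1070 genes at an unadjusted p under 0.05. DESeq2 called 97 genes there, with 0 members among them. The blockade effect in DP minus that in DN cells was log2 0.83 ± 0.29 for Slc37a2 (adjusted p = 0.432) and 0.57 ± 0.18 for Slc44a2 (adjusted p = 0.38).

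The subset comparisons asked how PD-1- TILs differ among themselves. Effector-like cells held less Slc11a2 than memory-like cells, and both held less than naive-like cells. Slc11a2 was at 28.7, 35.9 and 32.4 CPM in effector-like libraries, at a lowest, median and highest value of 59.3, 66.4 and 81.8 CPM in memory-like libraries, and at 87.5 to 146 CPM in naive-like libraries. The 3 ranges did not overlap. Its log2 fold change was -1.08 ± 0.19 in effector-like against memory-like cells (adjusted p = 0.00627), -1.74 ± 0.19 in effector-like against naive-like cells (adjusted p = 2.83e-05) and -0.66 ± 0.15 in memory-like against naive-like cells (adjusted p = 0.0191). The last of these was lost without memory-like replicate 1 or 3 (adjusted p = 0.0556 and 0.0535) and with the library name number as a block (0.0989). The call in effector-like against memory-like cells was lost with the title number as a block (0.0546). Losses of other subset calls with such blocks are given at the end.

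In effector-like against memory-like cells, 0 members were higher and 3 lower of 179 tested, against 1.91% of all genes (0.484% higher and 1.43% lower). DESeq2 called 7 members. The edgeR calls beside Slc11a2 were Slc25a5, at 594, 570 and 460 CPM in effector-like against 711 to 847 CPM in memory-like libraries (log2 -0.52 ± 0.1, adjusted p = 0.0166), and Slc16a5. Slc16a5 was at 0 counts in all effector-like libraries and at 5.05, 0, 8.02, 6.26 and 7.63 CPM in memory-like libraries, so that 1 memory-like library was also at 0. Slc25a5 did not pass without effector-like replicate 2 or 3 (adjusted p = 0.0537 and 0.0741), and Slc16a5 did not pass without any 1 of 8 libraries (each effector-like, memory-like replicates 1, 3, 4 and 5, and naive-like replicate 1; adjusted p = 0.0539 to 0.125). With only the groups compared, neither passed (adjusted p = 0.0854 for Slc25a5 and 0.107 for Slc16a5), and Slc25a5 did not pass with no filter on low counts (0.0542). Without effector-like replicate 2, or 3, 1 member passed. The 3 members with the smallest p among those higher in effector-like cells, Slc20a1, Slc4a2 and Slc6a8, did not pass (adjusted p = 0.11, 0.126 and 0.16).

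In effector-like against naive-like cells, 2 members were higher and 10 lower of 179, against 6.42% of all genes (2.62% higher and 3.79% lower). Slc4a2, an anion exchanger, was at 56.5, 54 and 46.7 CPM in effector-like against 12.4 to 33.5 CPM in naive-like libraries (log2 1.18 ± 0.25, adjusted p = 0.00871). Slc43a3 was at 15.2, 2.99 and 5.86 CPM against 0.163 to 2.78 CPM (3.1 ± 0.73, adjusted p = 0.0164). Neither gene overlapped between the groups, and both calls were lost without effector-like replicate 1 (adjusted p = 0.0507 and 0.164), that of Slc43a3 also with only the groups compared (0.0821). Among the lower members were Slc12a7, at 52.9, 82.2 and 99.2 CPM against 119 to 222 CPM (-1.24 ± 0.25, adjusted p = 0.00629), and Slc37a2, at 1.57, 5.99 and 4.49 CPM against 14.6 to 29 CPM (-2.42 ± 0.51, adjusted p = 0.00797). Amino acid carriers were lower too: Slc43a2 was at 7.61, 5.83 and 7.81 CPM against 20.3 to 36.9 CPM (-1.94 ± 0.39, adjusted p = 0.00644), and Slc38a1 at 107, 90.3 and 62.9 CPM against 129 to 195 CPM (-0.74 ± 0.18, adjusted p = 0.0167). The calls of Slc12a7, Slc37a2, Slc43a2 and Slc11a2 held whichever library was left out, and that of Slc38a1 was lost without effector-like replicate 2 or 3 (adjusted p = 0.059 and 0.0894) and with only the groups compared (0.0628). Slc26a11 was at 18, 34.8 and 31 CPM against 54.4 to 182 CPM and lost its call without effector-like replicate 1 or 3 (adjusted p = 0.118 and 0.0626). Slc25a3, the mitochondrial phosphate carrier, was at 628, 726 and 626 against 807 to 941 CPM (-0.38 ± 0.085, adjusted p = 0.0132) and lost its call without the same libraries (adjusted p = 0.0849 and 0.0642) and with no filter on low counts (0.0667). Slc50a1, a sugar carrier, and Slc25a36, a pyrimidine nucleotide carrier, were called with adjusted p = 0.0474 and 0.0375 and lost their calls without 10 and 7 of the 14 libraries in turn, and with only the groups compared (0.104 and 0.0698). Slc16a5, at 0 in effector-like cells, was at least 58.1-fold lower than in naive-like cells.

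In memory-like against naive-like cells, 4 members were higher and 5 lower of 179, against 5.51% of all genes (2.78% higher and 2.73% lower). Slc43a3 was at 15.5, 6.07, 15.7, 12.7 and 23 CPM in memory-like against 0.163 to 2.78 CPM in naive-like libraries (log2 3.96 ± 0.69, adjusted p = 0.00383), with no overlap. Siglech put the memory-like libraries in the same order, at 65.7, 17.7, 377, 56.2 and 416 CPM. In DP against DN cells, in contrast, Slc43a3 was higher and Siglech lower. The part of plasmacytoid cells in the values of Slc43a3 was not tested. Slco4a1, an organic anion carrier, was at 13.1, 35.7, 57.5, 12.9 and 96.6 CPM against 0.15 to 12.1 CPM (2.82 ± 0.75, adjusted p = 0.0387). Its 2 highest values came from memory-like replicates 3 and 5, which also had the highest Siglech, at 377 and 416 CPM against 17.7 to 65.7 CPM in the other memory-like and 0 to 63.5 CPM in the naive-like libraries. The call of Slco4a1 was lost without memory-like replicate 2, 3 or 5, naive-like replicate 1, 2 or 3, or effector-like replicate 1 (adjusted p = 0.0509 to 0.109), and the part of plasmacytoid cells in it was not tested. Slc18b1, a vesicular polyamine carrier, was higher as well, at 4.27 to 22.2 against 2.55 to 5.06 CPM (2.2 ± 0.46, adjusted p = 0.0117). That call was lost with the title number or the library name number as a block (adjusted p up to 0.111). Slc12a7 was lower, at 80.8 to 136 against 119 to 222 CPM, with overlap between the groups (-0.91 ± 0.21, adjusted p = 0.0181), and lost its call without memory-like replicate 1 or 3 (adjusted p = 0.0571 and 0.0535). It also lost it with the library name number as a block (0.0709). Slc25a3 was lower, at 659 to 703 against 807 to 941 CPM (-0.32 ± 0.072, adjusted p = 0.0171), and lost its call without memory-like replicate 3 (adjusted p = 0.0521). Either number as a block ended this call too (adjusted p up to 0.124). Slc26a11 was lower by -1.44 ± 0.33 (adjusted p = 0.0203) and lost its call without memory-like replicate 5 (adjusted p = 0.0508). Slc39a4 and Slc25a51, a mitochondrial NAD carrier, were called at adjusted p = 0.0427 and 0.0466 and lost their calls without 10 and 11 of the 14 libraries in turn, and with no filter on low counts (0.0795 and 0.0525). In all, leaving out memory-like replicate 1 gave 5 called members and leaving out replicate 3 gave 3.

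**Figure D5:**
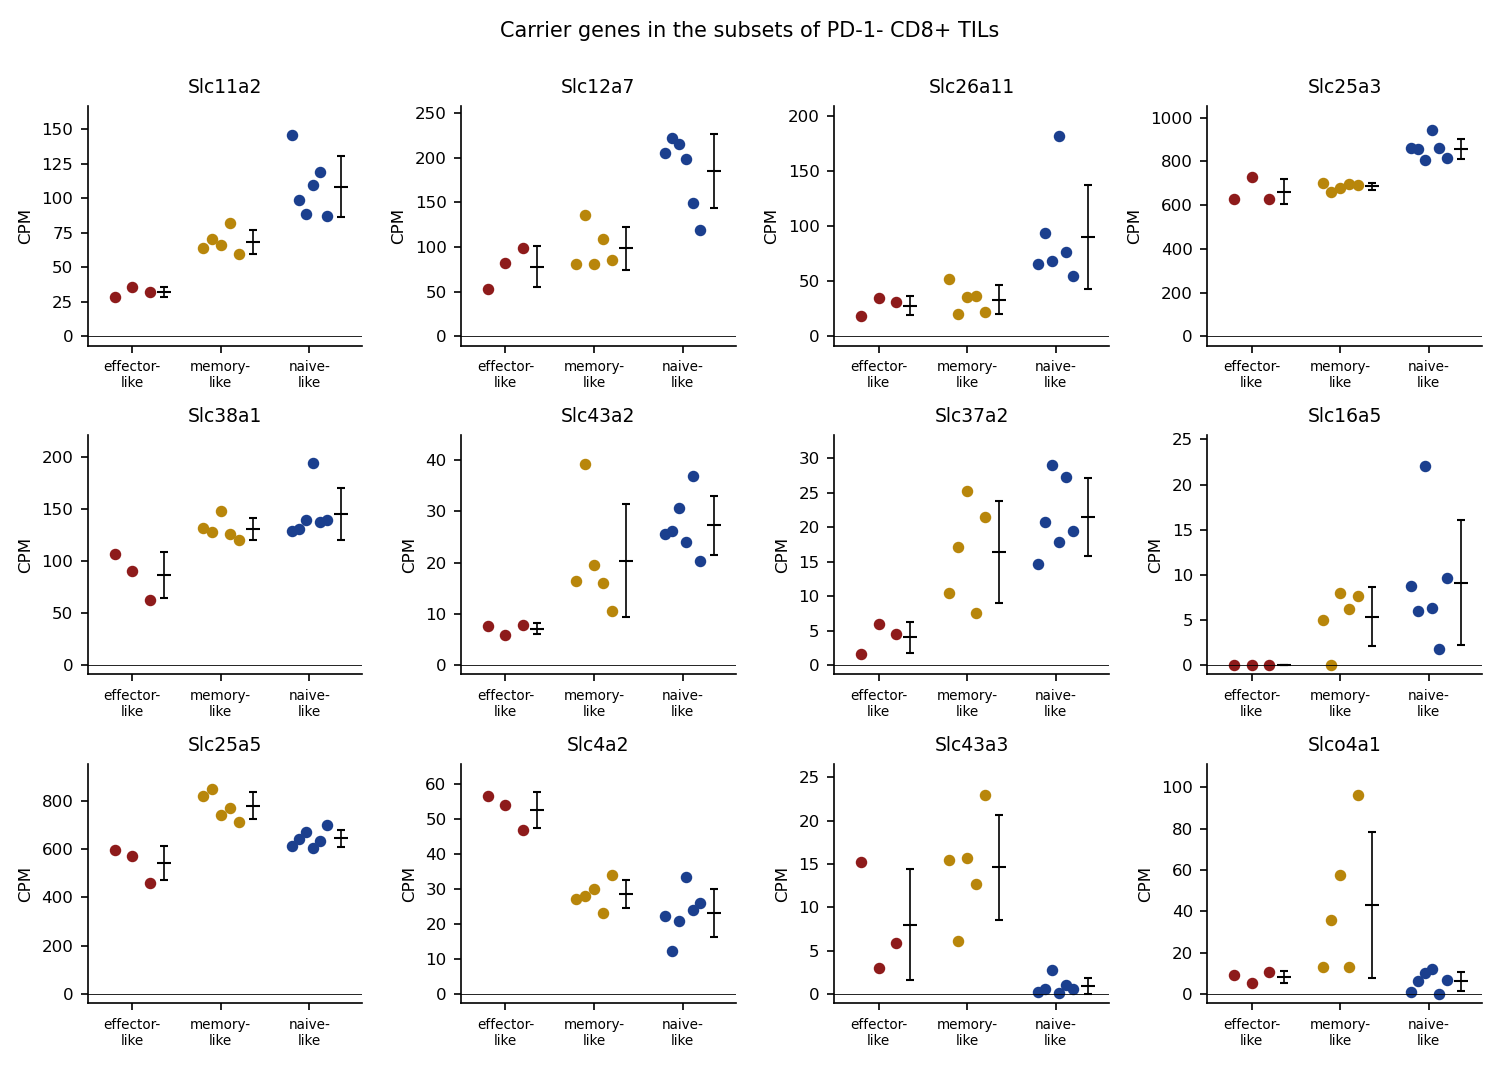
CPM (vertical axes) of 12 carrier genes in each subset library, in effector-like (3), memory-like (5) and naive-like (6) cells (left to right); dashes and bars give mean and SD. Slc11a2 falls into 3 separate ranges, Slc12a7, Slc25a3 and Slc26a11 are highest in naive-like cells, and Slc43a3 is lowest in them.

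The subset libraries and the treatment libraries are separate. Of the 12 members called between effector-like and naive-like cells, 10 were also called between DP and DN cells with isotype antibodies, which was 83.3% of the 12 and 17.9% of the 56 called there and tested in both tables. The direction was the same for 9 of the 10. Over all genes, 67.8% of those called between effector-like and naive-like cells were also called between DP and DN isotype cells. Between DP and DN blockade cells, 7 of the 12 were called (58.3%, and 14% of the 50 called there), 6 of them in the same direction, against 49.8% over all genes. Of the 10 above, Slc43a2, Slc25a36 and Slc4a2 were not called there. In effector-like and DP isotype cells, lower in both were Slc11a2, Slc12a7, Slc26a11, Slc43a2, Slc16a5, Slc25a36 and Slc50a1, and higher in both were Slc43a3 and Slc4a2. Slc37a2 was called in opposite directions. Slc2a6, the member with the smallest p in DP against DN cells, did not pass in effector-like against naive-like cells, at 11.8, 2.84 and 6.25 CPM against 0 to 12.8 CPM. It was highest in memory-like replicate 2, at 46.7 CPM, where Lyz2 was also high, at 392 CPM against 0 in the other memory-like libraries. Lyz2 was as high elsewhere, at 415 CPM in effector-like replicate 1 and 376, 464 and 641 CPM in naive-like replicates 2, 3 and 5. Slc2a6 was at 11.8 CPM in that effector-like library and at most 12.8 CPM in naive-like libraries. The part of myeloid RNA in these values was not tested. Slc17a6 and Slc16a11, so high in DP cells, were at most 0.788 and 0.127 CPM in any subset library and were not tested there.

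Genes that work beside the carriers were read as lists. Their counts stand beside 14.4% of all genes higher and 12.5% lower in DP cells after blockade, 15 and 14.8% with isotype antibodies, and 2.62 and 3.79% in effector-like against naive-like cells, and none is read as particular to its list. Of the 6 Slc genes set aside by name, 4 were higher in DP than in DN cells after blockade and 3 with isotype antibodies. Slc2a3 (GLUT3), a glucose importer, was higher by log2 1.62 ± 0.17 and 2.07 ± 0.18, and Slc16a3 (MCT4), which exports lactate, by 1.43 ± 0.38 and 1.87 ± 0.39. Of 31 tested genes of the ATF4 response and of amino acid synthesis, 3 were higher and 0 lower after blockade, and 6 higher and 0 lower with isotype antibodies, with Mthfd2, a mitochondrial folate enzyme, at 0.66 ± 0.17 and 0.88 ± 0.17. In effector-like against naive-like cells 5 of 30 were higher and 0 lower, among them Aldh18a1, a proline synthesis enzyme, at 1.33 ± 0.24, and Cth, a cysteine synthesis enzyme. Tumour and stroma genes varied between libraries of both experiments. Their summed CPM was 458 to 811 in DP blockade and 530 to 934 in DP isotype libraries. It was 572 to 2370 in DN blockade and 255 to 1210 in DN isotype libraries. Krt8, an epithelial keratin, was at 216, 28.2 and 326 CPM in DN isotype libraries, and Mthfd2 at 73.2, 49.5 and 80.5 CPM in the same order. In the subsets, Krt8 was at 130, 225 and 2.15 CPM in effector-like against 4.53 to 205 CPM in naive-like libraries, with the 205 in replicate 6. Cth was at 14, 11.2 and 0 CPM in the same effector-like libraries and at 0 in all naive-like libraries. Asns, asparagine synthetase, which did not pass, was at 83.9, 97.3 and 15.4 against 0 to 59.3 CPM, with the 59.3 also in naive-like replicate 6. Aldh18a1 was at 149, 110 and 157 against 29.5 to 78.9 CPM. The part of tumour RNA in these values was not tested. Of 35 genes of amino acid sensing and mTORC1, 6 were higher and 6 lower after blockade and 4 and 4 with isotype antibodies. Sesn1, a leucine sensor family member, was lower by -0.99 ± 0.23 and -1.71 ± 0.23, and by -1.94 ± 0.39 in effector-like against naive-like cells. Of 14 regulators of nutrient uptake, 6 were higher and 3 lower after blockade, and 4 and 4 with isotype antibodies. Hif1a, the hypoxia-response factor, was higher by 0.42 ± 0.14 and 1.06 ± 0.14, and Myc, a driver of carrier expression in activated T cells, was lower with isotype antibodies (-1.23 ± 0.16) and in effector-like cells against naive-like cells (-2.43 ± 0.21). Of 21 other carrier genes, 4 were higher and 5 lower after blockade and 2 and 5 with isotype antibodies. Unc93b1, which brings nucleic acid sensors to endosomes and is abundant in plasmacytoid dendritic cells, was lower by -1.72 ± 0.19 and -2.59 ± 0.19, with Siglech moving the same way.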

How the data were processed

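Bulk RNA-seq libraries were made from about 2000 sorted cells each with an adapted SMART-Seq2 protocol, per the labels' protocols. The authors deposited expected counts per gene, and the submitters' processing notes name TopHat, RSEM, DESeq and mm9. UMI counts per single cell were deposited by the authors, with Cell Ranger 1.3 and mm10 named per the submitters' processing notes. Normalized and scaled versions were not used.

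Expected counts (22.6 and 30.5% of values not whole in the subset and treatment tables) were rounded, and 4 rows with repeated names were left out of the subset table. Genes were filtered with filterByExpr, scaled by TMM and tested with edgeR 4.0.16 in R 4.3.3 (quasi-likelihood test, all groups of a table in 1 fit, Benjamini-Hochberg adjustment over 12388 and 12710 genes, adjusted p under 0.05). CPM used TMM library sizes, and 3 counts over its summed libraries bounded a group with none; such limits and the Poisson intervals cover counting error only. DESeq2 1.42.0, relative log expression (RLE) size factors, no filter on low counts, leaving out Rn45s, leaving out each library, fits on only the groups compared and replicate blocks were the alternatives. The fit was tested on simulated data.

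Members and lists were chosen with earlier results of these data known. Named genes are, in each comparison, up to 10 called members in each direction with the smallest p (the 3 with the smallest p where none was called), and a panel of well known carriers; others were chosen after their values were seen. Some genes of the panel are not reported here. In DN blockade and DN isotype libraries, samples with the same number in their titles correlated at 0.153 to 0.464 over 3 pairs. DN blockade replicate 1 also correlated with DN isotype replicate 3, at 0.243, and their library names carry other numbers. Pairing by title number is therefore not established, and it was fitted only as an alternative.

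Cells needed 500 genes and no more than 10% of UMIs from mitochondrial genes, which kept 5452 of 5471 cells. Both endings of the cell names shared 7 barcodes. Isotype and blockade were not compared in them, because the labels do not tie cell names to samples. Promoter sequences are from RefSeq (GRCm38.p6), and no coordinates of the deposited files were used.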

Additional observations from a re-analysis of the deposited data

Results flagged for a closer look

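Single libraries stood apart for 5 of 38 gene and group pairs checked with Dixon's criterion, over 19 genes, and chance flags about 1 in 20. Naive-like replicate 4 had 182 CPM of Slc26a11 against 54.4 to 93.8 in the other naive-like libraries, 195 CPM of Slc38a1 against 129 to 140, and 5.06 CPM of Slc18b1 against 2.55 to 3.32. Naive-like replicate 3 had 2.78 CPM of Slc43a3 against 0.163 to 1.05 in the others. Memory-like replicate 3 had 1.34 CPM of Slc6a8 against 0 to 0.358 in the others.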

How the results depend on the processing

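Of 2743 alternative values for 138 pairs of a named gene and a comparison, 2466 kept direction and side of the threshold, 244 fell short of it, 33 newly passed it and 0 reversed. The median log2 fold change over all genes lay between -0.10 and 0.095 under every alternative. The number of members called in DN blockade against DN isotype cells was 4 with no filter on low counts and 10 with DESeq2, in place of 0, and 0 to 4 without single replicates. In DP blockade against DP isotype cells it was 1 with no filter, 1 with DESeq2, 1 with only the groups compared, 1 with those groups and the replicate number as a block (chosen after seeing the data), and 0 to 1 without single replicates. Leaving out single replicates gave 30 to 59 for DP against DN after blockade, with 30 without DP blockade replicate 2, 41 to 67 with isotype antibodies and 0 for the interaction. In effector-like against memory-like cells, 7 members were called with DESeq2, 1 with only the groups compared, 0 with the replicate number as a block and 1 to 4 without single replicates. Effector-like against naive-like cells gave 8 to 15 without single replicates. Memory-like against naive-like cells gave 14 with DESeq2, 5 with the replicate number as a block, 2 with the library name number as a block in these groups alone, and 3 to 10 without single replicates. The cause of these shifts was not tested. In DN blockade against DN isotype cells, the title number as a block changed no call of a member. In the other comparisons same-numbered samples correlated at -0.382 to 0.108 by title number. DP and DN libraries of 1 treatment also share numbers in their library names, and by these the correlations were all positive, at 0.055 to 0.164 after blockade and 0.019 to 0.38 with isotype antibodies, without all passing 0.1. Memory-like and naive-like libraries gave -0.083 to 0.004 by library name. Correlations over so few libraries cannot settle whether such numbers pair samples, and the main tests used no pairs. Fitted as a block all the same, the title number ended the effector-like against memory-like calls of Slc11a2, Slc25a5 and Slc16a5 (adjusted p = 0.0546, 0.064 and 0.171) and the effector-like against naive-like calls of Slc26a11, Slc43a3, Slc25a3, Slc38a1 and Slc50a1 (0.0513 to 0.184). In memory-like against naive-like cells it ended those of Slc25a3, Slc25a51, Slc18b1, Slc39a4 and Slco4a1 (0.061 to 0.141). There the library name number ended the calls of Slc12a7 and Slc18b1 (0.0709 and 0.111), Slc43a3 and Slc11a2 (0.0732 and 0.0989), Slc25a3, Slco4a1, Slc39a4 and Slc25a51 (0.09 to 0.205). In DP against DN cells blocks ended the calls of Slc1a5 (0.0598 to 0.0962), Slc44a2 (0.071 and 0.0754) and Slc15a4 (0.0701) after blockade and of Slc35a1 (0.0611 and 0.0914) with isotype antibodies. In data simulated at these depths, 23 to 35% of 2-fold changes were called in the subset comparisons and 56 to 71% in the treatment comparisons. The changed genes were not drawn from those with the lowest mean levels, and differences in cell content between libraries were not simulated. These shares therefore do not cover members with the lowest levels. The planned comparison of blockade with isotype antibodies in single DN cells, and its alternatives, were not run, because the labels do not tie the cell names to the samples.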
